A study of Mus musculus with 2 samples.

Results

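Annotated nonsense-mediated decay transcripts are the transcripts that GENCODE M21 types as nonsense_mediated_decay because their reading frame ends too far upstream of the last exon junction. They were chosen by their measured counts: a count of at least 2, summed over both libraries, was required. The annotation holds 7186 such transcripts, 652 had a count in these hearts, and 388 met the rule. They belong to 356 genes and stand among 16832 annotated transcripts of every type with the same summed count. The data are long-read RNA sequencing of heart tissue from male B6CASTF1/J mice aged 14 days, in 1 group of 2 libraries called replicates 1 and 2. These animals are F1 hybrids of C57BL/6J and the wild-derived CAST strain, and the labels name no mutation or treatment. Each library was made from 2 µg of total RNA with added spike-ins. Both carry 1 donor label and name the same pair of cDNAs, and the labels speak of 3 males per tissue sample but do not tell if their tissue was pooled. Differences between the libraries may therefore be technical, and no comparison of conditions exists.

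Nonsense-mediated decay is a pathway of the cytoplasm that removes messenger RNAs whose translation ends early. Splicing leaves an exon junction complex just upstream of each exon junction, and a ribosome that stops well before the last junction leaves a complex in place, which with the helicase Upf1 and the release factors starts degradation. Many genes, among them those of splicing factors, are known to make such transcripts as a form of control, often by including an exon with a stop codon in frame, called a poison exon. The annotation type rests on the position of the stop codon, and neither stability nor translation was measured here, so a count is the level of RNA that was present in the tissue.

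The sequences below show how the transcripts with high counts differ from the protein-coding transcript of the same gene with the highest summed count, called the reference transcript. They are GENCODE M21 sequences of the GRCm38 (mm10) assembly on the strand of the gene, not sequences of the reads. The first set gives the included exon, from its first base to the stop codon that ends the reading frame, with the stop codon in capitals.
E2f6-204: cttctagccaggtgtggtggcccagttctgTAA
Cenpa-202: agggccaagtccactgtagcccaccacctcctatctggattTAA
Srsf3-201: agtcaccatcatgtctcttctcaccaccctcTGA
Thap12-202: atgcattttgcagaggcatcagaaaacTAA
Meaf6-208: gtatgtatatTAG
Myoz2-203: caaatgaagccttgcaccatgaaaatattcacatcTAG
Actg1-206: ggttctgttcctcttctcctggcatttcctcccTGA
The whole exons are chr12:16813847-16813912 for E2f6, chr5:30669692-30669828 for Cenpa, chr17:29039454-29039909 for Srsf3 and chr7:98707937-98708031 for Thap12, all on the plus strand. The exon of Meaf6 is chr4:125107652-125107709 on the plus strand, and those of Myoz2 and Actg1 are chr3:123033192-123033363 and chr11:120347492-120347536 on the minus strand. Each of these 7 exons holds its own stop codon, the earliest of which ends 13 bases into the exon of Meaf6-208.

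A second set shows frames that run into bases the reference splices out. Each begins with 20 exon bases that both transcripts share, followed by the kept bases up to the stop codon in capitals.
Ddx5-208: tgtggcctccagagggctaggtTAG
Ivns1abp-204: tggaggagctcatggaagaggtttatTAA
The kept part is chr11:106782694-106783958 on the minus strand for Ddx5 and chr1:151355167-151356128 on the plus strand for Ivns1abp. The frame of Ddx5-208 ended 5 bases into 1265 kept bases, and that of Ivns1abp-204 ended 9 bases into 962.

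A further set shows small shifts of a splice site, where the capitals are the bases that 1 of the 2 transcripts has and the other lacks, with 15 exon bases on each side. In Cyth2 and Tesc the decay transcript has the capitals in addition, and in Tnnc1, Ncaph2 and Psma3 it lacks them.
Cyth2-203: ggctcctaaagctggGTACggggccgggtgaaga
Tesc-202: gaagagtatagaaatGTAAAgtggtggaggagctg
Tnnc1-203: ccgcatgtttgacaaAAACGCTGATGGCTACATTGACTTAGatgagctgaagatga
Ncaph2-209: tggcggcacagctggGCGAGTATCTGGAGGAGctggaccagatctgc
Psma3-201: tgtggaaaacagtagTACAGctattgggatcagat
These parts are 4 bases at chr7:45810123-45810126 (minus strand), 5 at chr5:118056439-118056443, 26 at chr14:31211280-31211305, 17 at chr15:89355927-89355943 and 5 at chr12:70983319-70983323 (plus strand). None of the 5 lengths is a multiple of 3, so each shift changes the reading frame.

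The last pair are junctions that lie after the normal stop codon, shown with 15 bases on each side of the junction and the last exon in capitals. Here the coding frame is that of the reference, and only the distance from the stop codon to the last junction sets the type.
Smpx-201: tcaggagatgcatttCGTTGACGTGTTTTT
Chpt1-207: ccccctatacaggagGTTCAAGTTCTTTCT

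The decay transcripts took a small share of the RNA. Replicate 1 held 1958 counts on them and replicate 2 held 2002, out of 854401 and 856013 counts on annotated transcripts of any type. Their share was 0.229% in replicate 1 (95% Clopper-Pearson interval 0.219 to 0.240) and 0.234% in replicate 2 (0.224 to 0.244), 0.232% ± 0.00333 (SD, n = 2). The libraries did not differ in it beyond counting error (two-sided Fisher's exact test, p = 0.525). Intervals and tests cover counting error only, because reads that carry no molecular identifier need not come from separate molecules. Annotated retained-intron transcripts took 1.18% and 0.912%, a difference past counting error (Fisher's exact test, p = 1.33e-67), and 1 of them, Cox4i1-204, held 5462 and 3443 of their 10097 and 7804 counts. Transcripts of the type processed_transcript took 0.322% and 0.318%. Total counts were 1107678 and 1110707 per library, and 80.7% and 80.4% of the counts on reference genes fell on annotated transcripts. All 10 cardiomyocyte markers were detected, with 5.26% and 5.28% of the counts on reference genes.

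Most of the 388 transcripts were rare. Their median summed count was 4. A summed count of exactly 2 was found for 116, 3 to 4 for 112, 5 to 9 for 98, 10 to 19 for 37, 20 to 49 for 14 and 50 or more for 11. The 10 highest held 40.9% of all counts on the 388, and Smpx-201 alone 14.9%. A count in both libraries was found for 286 (73.7%), while 58 were seen in replicate 1 alone and 44 in replicate 2 alone. All 62 with a summed count of at least 10 were found in both. Of the 116 at the limit of the rule 54 were in both libraries, among them 1110004F10Rik-204 and 2310009B15Rik-202 with 1 and 1 counts. Just outside the limit lay 264 transcripts with a single count, such as 1810009A15Rik-202 with 0 and 1. In most of the 356 genes (331) a single decay transcript met the rule, in 21 genes 2 did and in 3 genes 3 did. Tmem234, a transmembrane protein gene, had 6, from Tmem234-210 with 30 and 27 counts to Tmem234-216 with 0 and 4.

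**Figure D1:**
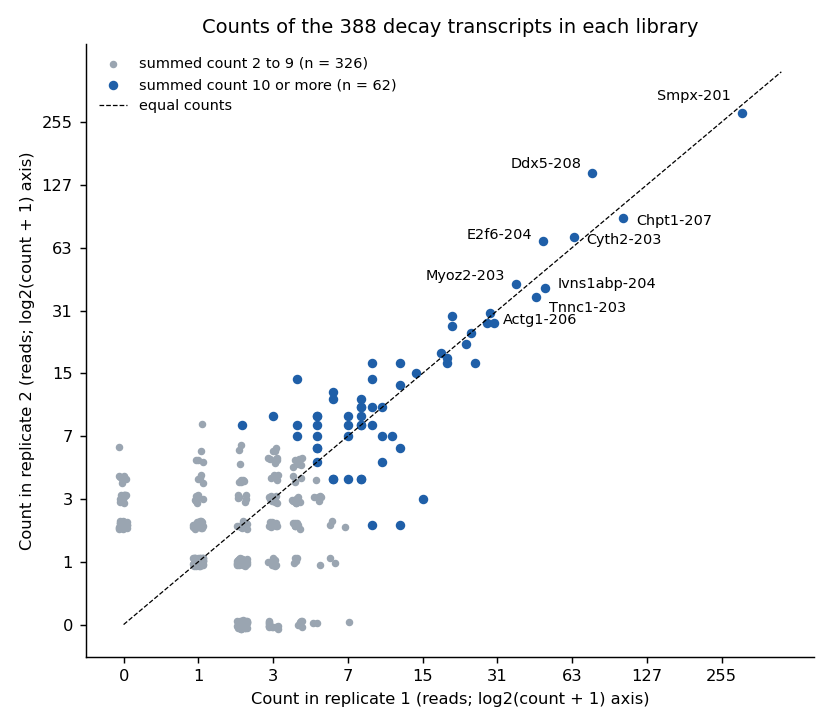
Count of each of the 388 annotated decay transcripts in replicate 1 (x axis, reads, log2 of the count plus 1) and replicate 2 (y axis, same scale), grey for a summed count of 2 to 9 (n = 326, moved slightly at random so that points do not cover each other) and blue for 10 or more (n = 62). No blue point lies at a count of 0 in either library. Ddx5-208 (76 and 145) lies above the dashed line of equal counts, and some points of lower count lie farther from it, such as Rbm7-204 (15 and 3), Tor1aip1-206 (12 and 2) and Taf1d-204 (4 and 14).

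Detection can be set against what was annotated. In genes with at least 20 summed counts on annotated transcripts, 317 of 3107 annotated decay transcripts (10.2%) had a summed count of at least 2. The same was true of 7.68% of retained-intron transcripts, 5.6% of those of the type processed_transcript and 48.7% of protein-coding transcripts. Such genes with a decay transcript annotated numbered 1905, and 286 of them (15%) had 1 or more that met the rule.

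Shares of a gene are given as a percentage of its counts on annotated transcripts. Over the 317 decay transcripts whose gene had at least 20 such counts, the median share was 4.76% of the gene, with quartiles of 2.06% and 10%. It was 5.0% in replicate 1 and 4.34% in replicate 2. A share under 1% was found for 33, from 1 to under 5% for 130, from 5 to under 10% for 74, from 10 to under 25% for 57, from 25 to under 50% for 17 and of 50% or more for 6. In 9 of the 317 cases no annotated transcript of the gene had a higher summed count than the decay transcript, ties included. Among the 9 were Crebzf-203 and Crebzf-205, which tied at 17 with each other and with the protein-coding Crebzf-201. Of 61 with at least 10 counts of their own, 39 had shares in the libraries that lay within 1.5 times of each other.

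**Figure D2:**
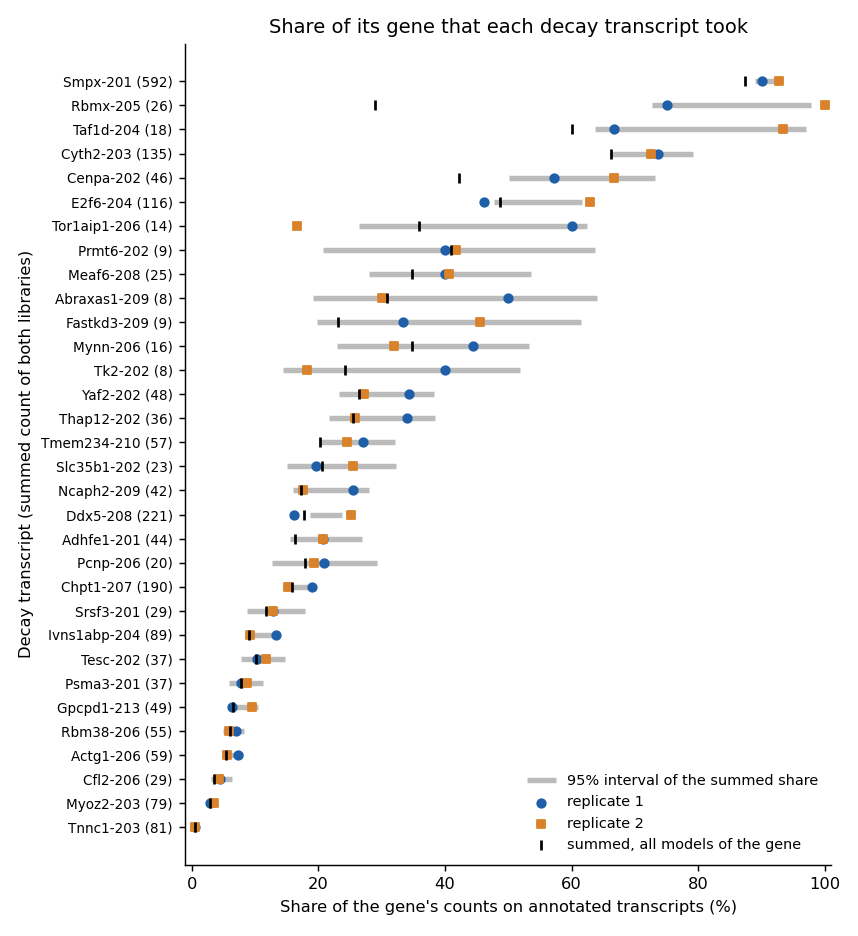
Share of the gene's counts on annotated transcripts (x axis, percent) taken by each decay transcript (y axis, with its summed count) in replicate 1 (circles) and replicate 2 (squares), for the 25 with the highest counts and the 15 with the highest shares. Grey bars are 95% Clopper-Pearson intervals of the summed share and black ticks the summed share over all models of the gene, new ones included. Smpx-201 and Cyth2-203 take most of their genes in both libraries, and the tick of Rbmx-205 (28.9%) lies far below its summed share (89.7%).

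Smpx-201 had the highest count. Smpx encodes a small protein of striated muscle linked to the X chromosome, and Smpx-201 (6 exons, 1152 bases) had 309 counts in replicate 1 and 283 in replicate 2. Its gene had 343 and 305, so that it took 90.1% and 92.8%. The reference Smpx-203 had 22 and 16 counts. Both transcripts hold the same 85 codons and the same stop codon. Smpx-201 has in addition a 35-base exon in the 3′ untranslated region, which moves the distance from the stop codon to the last junction from 17 to 52 bases, across the limit of 50. A protein-coding transcript of the annotation, Smpx-208, has exactly the introns of Smpx-201 and 0 counts. These 2 differ only in their ends, so the counts given to Smpx-201 cannot be told apart from counts of Smpx-208 by splicing.

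The same holds for 5 further decay transcripts: Tbrg4-211 (5 and 9 counts), Prmt6-202 (4 and 5), Abraxas1-209 (5 and 3), Flot2-205 (4 and 1) and Srsf2-202 (1 and 2). Together the 6 held 631 of the 3960 summed counts. Across the files 272 groups of annotated transcripts share all introns, and in 0 of them did more than 1 transcript carry counts. Groups that mix the decay and protein-coding types numbered 23, of which 7 had their counts under the decay name and 16 under the protein-coding name (235 counts). Without the 6 transcripts the class took 0.191% and 0.198% of the counts on annotated transcripts (Fisher's exact test, p = 0.259).

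Chpt1-207 was the other abundant case in which the protein does not change. Chpt1 encodes the choline phosphotransferase of phosphatidylcholine synthesis. Its decay transcript (chr10, minus strand) had 102 and 88 counts, 19% and 15.2% of the gene, beside 237 and 297 for the reference Chpt1-201. An intron of 2348 bases is removed from the reference's last exon, after the stop codon of the shared frame of 398 codons. The stop codon then lies 72 bases before the last junction, where in the reference it lies in the last exon. The intron occurred in 102 and 93 counts over all models of the gene, against 238 and 297 that kept its place as exon. Most counts of the other protein-coding transcripts of Chpt1 are in neither number: all its protein-coding transcripts together had 436 and 490.

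Among transcripts with a poison exon, E2f6-204, Cenpa-202 and Meaf6-208 had high counts and were the most abundant annotated transcripts of their genes by summed count. E2f6 encodes a repressive member of the E2F transcription factors. E2f6-204 had 48 counts of 104 in replicate 1 (46.2%) and 68 of 108 in replicate 2 (63%), while the reference E2f6-201 had 53 and 36. The decay transcript was thus below the reference in replicate 1 and above it in replicate 2. Its 66-base exon ends a frame of 272 codons after 46. Cenpa encodes the histone H3 variant of the centromere, and Cenpa-202 had 20 of 35 and 26 of 39 counts (57.1% and 66.7%) beside 15 and 12 for Cenpa-205. Its 137-base exon stops the frame after 42 of 134 codons. Over all models of the gene, new ones included, its summed share was 42.2%, against 62.2% on annotated transcripts. Over all models the junctions of the E2f6 exon had 53 and 75 counts and the junction that skips it 56 and 46. For Cenpa they had 25 and 37 against 16 and 14, so that inclusion was the more frequent in both libraries.

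Meaf6-208, of a subunit of the NuA4 histone acetyltransferase, had 12 and 13 counts (40.0% and 40.6%), above 9 and 8 for the reference Meaf6-205. Its 58-base exon removes only the end of the frame, from 191 to 181 codons. Over all models the junctions of that exon had 13 and 15 counts, against 10 and 8 for the reference's junction that skips it. Most counts of the other protein-coding transcripts of Meaf6 are in neither number: all its protein-coding transcripts together had 18 and 19. Inclusion was thus compared with the reference's junction alone. Yaf2-202, of a subunit of polycomb repressive complex 1, had 24 and 24 counts (34.3% and 27.3%) with a 70-base exon, whose junctions had 27 and 28 counts against 52 and 73. Thap12-202, of a THAP domain protein, had 19 and 17 (33.9% and 25.8%) with a 95-base exon, whose junctions had 22 and 17 counts against 40 and 47. For each of the 3, the shares of both libraries lay within the 95% interval of the summed share.

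Some transcripts with high counts took a small share of their gene. Myoz2-203 had 37 and 42 counts, 2.89% and 3.50% of a gene with 1282 and 1201. Myoz2 encodes calsarcin-1, a Z-disc protein that binds calcineurin, and the 172-base exon of Myoz2-203 ends the frame after 37 of 264 codons. Tnnc1-203 had 45 and 36 counts and took 0.545% and 0.501% of Tnnc1, the troponin C of heart and slow muscle, whose reference Tnnc1-202 had 8216 and 7148. With an acceptor 26 bases inside the fifth exon its frame has 106 codons, beside 161 in the reference. Actg1-206, of cytoplasmic gamma-actin, had 29 and 30 counts (7.34% and 5.51%) and carries a 45-base exon, a multiple of 3, whose own stop codon ends the frame after 132 of 375 codons. Cfl2-206, of the muscle form of cofilin, had 14 and 15 (4.52% and 4.34%) and lacks 143 bases at a donor site. On the list of sarcomere and calcium handling genes, 7 had a decay transcript annotated and at least 20 counts. In 1 of these 7, Tnnc1, a decay transcript met the rule. Myoz2 is not on this list.

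**Figure D3:**
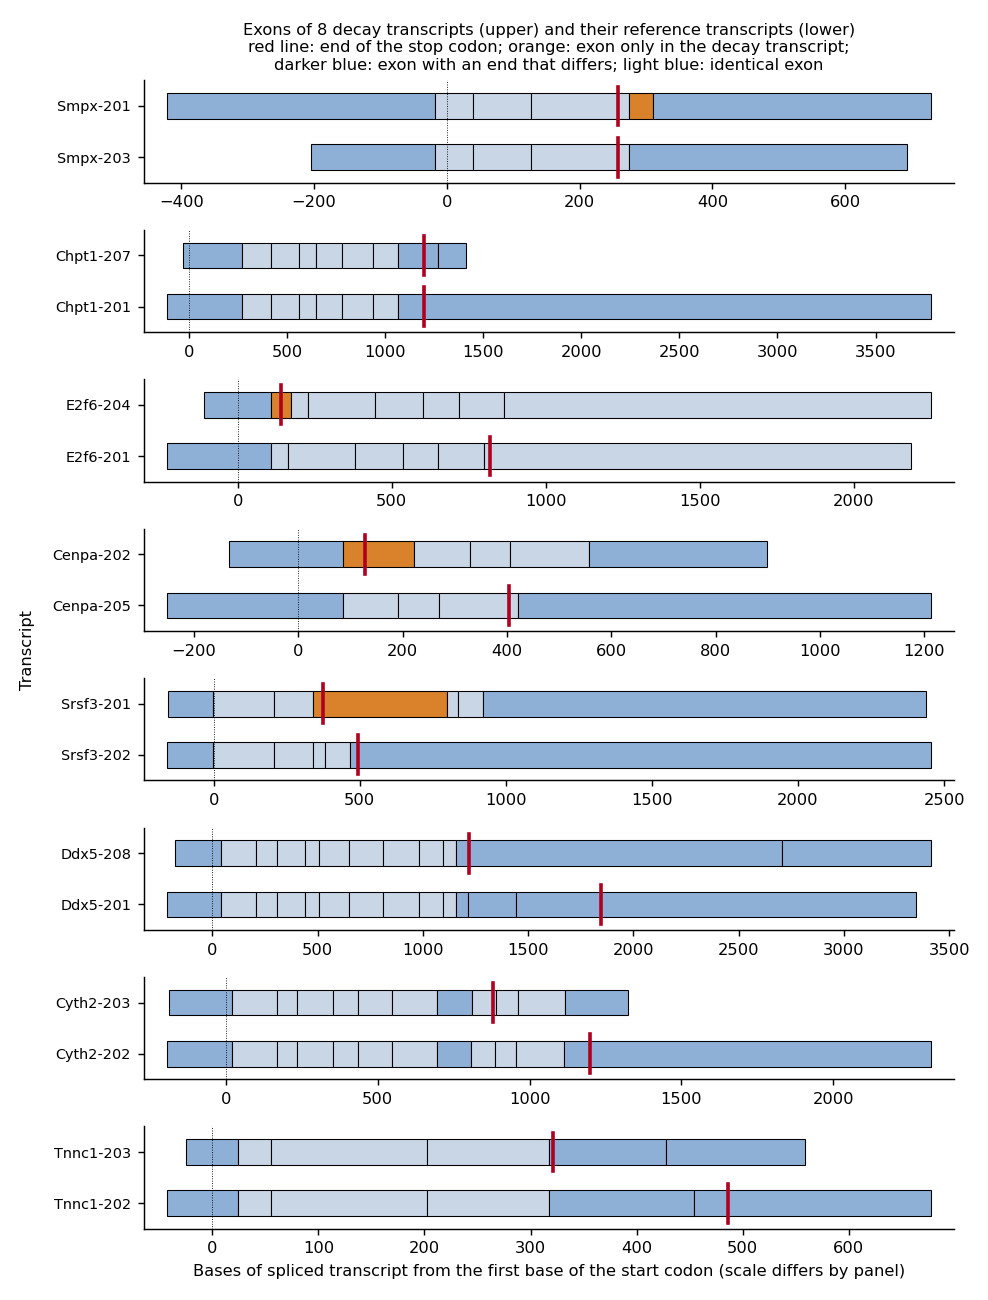
Exons of 8 decay transcripts (upper row of each panel) and of their reference transcripts (lower row), in bases of spliced transcript from the first base of the start codon (x axis, scale differs by panel), with the end of the stop codon as a red line. Orange marks an exon found only in the decay transcript, light blue an identical exon and darker blue an exon with an end that differs. The stop codon lies in the orange exon in E2f6-204, Cenpa-202 and Srsf3-201, before it in Smpx-201, and at the same place as in the reference in Smpx-201 and Chpt1-207.

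Small shifts of a donor or acceptor site set apart several of the abundant transcripts. Cyth2-203 had 64 of 87 counts in replicate 1 and 71 of 98 in replicate 2, 73.6% and 72.4% of Cyth2, which encodes cytohesin-2, a guanine nucleotide exchange factor of ARF GTPases. The reference Cyth2-202 had 20 and 24. Cyth2-203 has 4 more bases at the end of an exon, and its frame ends after 292 of 399 codons. Tesc-202, of the calcium-binding protein tescalcin, has 5 more bases and had 18 and 19 counts (10.3% and 11.7%). Psma3-201, of a subunit of the 20S proteasome, lacks 5 bases and had 19 and 18 counts (7.85% and 8.78%). Ncaph2-209, of a condensin II subunit, lacks 17 bases and had 25 and 17 counts (25.5% and 17.5%). Rbm38-206, of an RNA-binding protein, lacks 23 bases and had 28 and 27 counts (6.98% and 5.95%). Differences of at most 5 bases set apart 17 of the 388, with 272 summed counts, of which Cyth2-203 holds 135. Whether junctions were corrected to annotated sites before the counts were made is not given in the sources used here, and it bears on shifts of this size.

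Skipped exons were the most frequent change, but only 2 of the 25 highest counts were of this kind. Gpcpd1-213, of a phosphodiesterase of glycerophosphocholine, lacks a 76-base exon and had 20 and 29 counts (6.41% and 9.54%). Adhfe1-201, of a mitochondrial transhydrogenase, lacks a 41-base exon and had 23 and 21 counts (20.7% and 20.8%), beside 88 and 80 for the reference Adhfe1-203. Its frame ends after 38 of 465 codons. Longer shifts included Ivns1abp-204, of a Kelch-repeat protein, with 49 and 40 counts (13.4% and 9.24%). Others were Tmem234-210 with 109 more bases at a donor site (27.0% and 24.5%) and Pcnp-206 with 10 and 10 counts (20.8% and 19.2%). Slc35b1-202 lacks 25 bases at an acceptor site and had 9 and 14 counts (19.6% and 25.5%).

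High shares also came from genes with few annotated counts. Rbmx-205 had 9 of 12 and 17 of 17 annotated counts of Rbmx, which encodes the RNA-binding protein hnRNP G. Over all models of the gene its summed share was 28.9% in place of 89.7%. Its own introns nevertheless occurred in 86 counts, 60 of them on new models, against 4 counts with the competing introns of the reference. Taf1d-204, of a subunit of the RNA polymerase I factor SL1, had 4 of 6 and 14 of 15 counts, 85.7% summed and 60.0% over all models. Tor1aip1-206, of a nuclear envelope protein, had 12 of 20 and 2 of 12 (60.0% and 16.7%). Mynn-206 had 8 and 8 counts (44.4% and 32.0%), Prmt6-202 4 and 5 (40.0% and 41.7%) and Abraxas1-209 5 and 3 (50% and 30%). Fastkd3-209 had 4 and 5 (33.3% and 45.5%, but 23.1% summed over all models) and Tk2-202, of mitochondrial thymidine kinase, 6 and 2 (40.0% and 18.2%). With so few counts the intervals are wide: that of the summed share of Tk2-202 ran from 14.3% to 51.8%. Rbmx, Actg1 and the splicing factor gene Hnrnpa1 have intronless copies elsewhere in the genome, and how reads shared between copies were assigned is not given.

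Splicing regulators had the highest share of genes with such a transcript among the 6 gene lists. Of 48 listed genes with at least 20 counts and a decay transcript annotated, 20 (41.7%) had at least 1 that met the rule, beside 15% of all such genes. The 24 transcripts held 160 and 240 counts, 76 and 145 of them on Ddx5-208 alone. Their median share was 7.31%, beside 4.76% over all 317. None of the 24 was the most abundant annotated transcript of its gene, and 21 of 24 were found in both libraries. Rbmx is not on the list, and Rbmx-205 was the most abundant annotated transcript of its gene. By structure 9 of the 24 included a cassette exon, 5 skipped an exon, 1 kept an intron and 9 had several changes. For the other lists the same share of genes was 0 of 24 for mitochondrial and energy metabolism and 4 of 18 for ribosome and translation. It was 1 of 7 for sarcomere and calcium handling and 1 of 3 for stress sensors and the amino acid response. The lists are partial: the mitochondrial list leaves out Adhfe1, Ndufs6 and Ndufa7, for example. Their decay transcripts Adhfe1-201 (23 and 21 counts), Ndufs6-202 (9 and 8) and Ndufa7-202 (7 and 7) met the rule. The 0 of 24 thus covers the listed genes only. The counts by list are descriptions without a test.

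Ddx5-208 led the splicing regulators and had the second highest count of the 388. Ddx5 encodes a DEAD-box RNA helicase that takes part in splicing and transcription. Replicate 1 had 76 counts of 470 on it (16.2%) and replicate 2 had 145 of 577 (25.1%), while the reference Ddx5-201 had 394 and 432. The annotated retained-intron class, by contrast, took the larger share in replicate 1, and the test of Ddx5-208 itself did not pass (given at the end). Its frame has 406 of 615 codons, and the stop codon lies 1485 bases before the last junction. Together the 11 decay transcripts that keep an intron had 100 and 183 counts, most of them on Ddx5-208.

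In the SR protein family, Srsf3-201, Srsf6-201 and Srsf9-205 had a stop codon outside the reference's exons. Srsf3-201 had 12 of 93 and 17 of 133 counts (12.9% and 12.8%), with a 456-base exon that stops the frame after 124 of 164 codons. Srsf6-201 had 4 and 4 counts (4.65% and 3.39%) with a 268-base exon, and Srsf9-205, which includes a pair of further exons, 3 and 5 (4.23% and 8.2%). Of the SR kinases Clk1-210 had 1 and 4 counts. The regulators Rbm39-225 (11 and 7 counts, 73-base exon), Ccnl1-205 (1 and 4, 73-base exon) and Luc7l-206 (2 and 3, 71-base exon) also included an exon. Snrpa1-201, of a protein of the U2 particle, skips an 80-base exon and had 6 and 1 counts.

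In 3 genes of hnRNP proteins the decay transcript used the reference's own stop codon. Hnrnpdl-201 had 9 and 10 counts (17.0% and 25.6%), and a 105-base exon in its 3′ untranslated region moves the distance from stop codon to last junction from 21 to 126 bases. Hnrnpa1-203 had 8 and 11 counts (8.0% and 7.01%), with a distance of 90 in place of 14. Hnrnpa2b1-209, whose frame has 301 codons in place of 341, had 3 and 4 (1.01% and 1.03%), with 157 in place of 21. In each the reference itself stops before its last junction, but within 50 bases of it. Tardbp-201, of the protein TDP-43, had 3 and 5 counts, 28.6% of the annotated counts and 12.5% of all models. Hnrnpll-203 had 3 and 3, and Cirbp-201, of a cold-inducible RNA-binding protein, 4 and 3 (2.82% and 2.97%).

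Other lists held few. Of ribosomal protein genes Rpl10a-203 had 3 and 3 counts of 191 and 172, Rps19-205 had 4 and 0 of 147 and 113, and Rpl22l1-204 had 3 and 0 of 54 and 50. Sat1-207, of the polyamine acetyltransferase gene, had 1 and 2 of 39 and 40. The genes of the decay machinery had no decay transcript that met the rule, and only 1 of those with at least 20 counts had any annotated.

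Comparison with the reference transcript gave the structures of all 388. An exon was skipped in 91 and a cassette exon was included in 67, another donor site was used in 66 and another acceptor site in 64, and 64 had several changes. An intron was retained in 11, the first or last exon differed in 8, exons were exchanged in 7, an intron lay inside the reference's last exon in 5 and inside another exon in 2. No protein-coding transcript was annotated for 3. The order by counts was different: cassette exons held 1323 summed counts, 592 of them on Smpx-201, donor sites 660, acceptor sites 523 and skipped exons 492. Median shares of the 4 largest classes of a single change lay between 3.80% for acceptor sites and 5.70% for cassette exons.

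**Figure D4:**
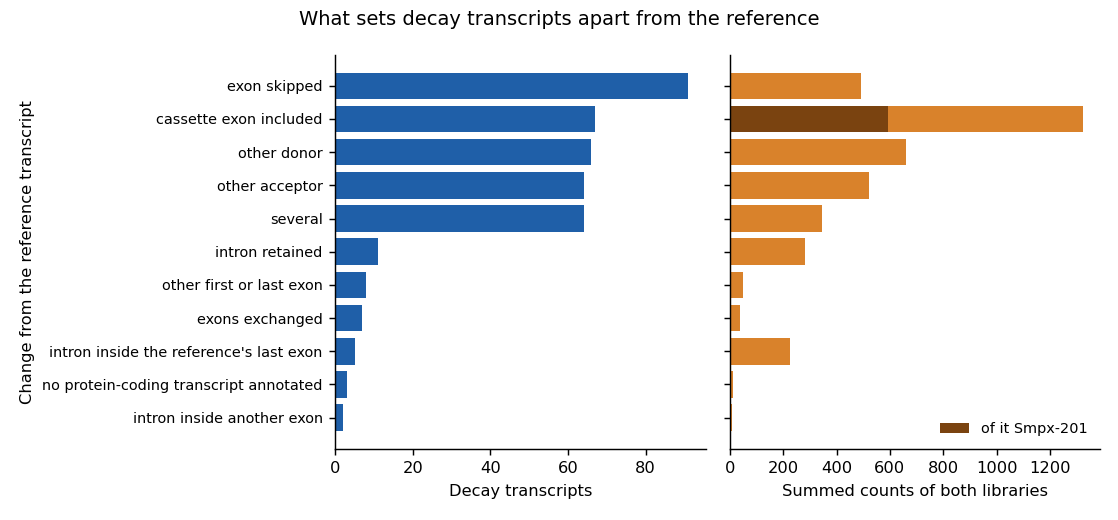
Number of decay transcripts (left, x axis) and their summed counts (right, x axis) by the change that sets each apart from its reference transcript (y axis). Skipped exons lead by number (91) and included cassette exons by counts (1323), of which the dark bar shows the 592 counts of Smpx-201.

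Most single changes had a length that would shift a reading frame. Transcripts are given this type for an early stop codon, so the lengths describe the annotation. Of 313 transcripts with 1 change of defined length, 274 changed the transcript by a number of bases that is not a multiple of 3, and 39 by a multiple. In 5 of the 274, Smpx-201 and Chpt1-207 among them, the stop codon was still that of the reference. Skipped exons were not a multiple of 3 in 90 of 91 cases, donor shifts in 60 of 66 and acceptor shifts in 61 of 64. Included cassette exons were not a multiple of 3 in 45 of 67, and the other 22 were a multiple of 3. In 21 of those 22, E2f6-204, Srsf3-201 and Actg1-206 among them, the stop codon lay outside the reference's exons, and in Hnrnpdl-201 it was that of the reference. Median sizes were 106 bases for skipped exons, 103 for cassette exons, 34.5 for donor and 39 for acceptor shifts. In 129 transcripts (1396 counts) the stop codon lay in bases outside the reference's exons, as in a poison exon. In 234 (1638 counts) it lay in exon bases that the reference also has. A further 22 (914 counts) used the reference's own stop codon, and 3 had no reference.

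The stop codon lay a median of 293 bases before the last exon junction, with a range of 35 to 3222. It was at least 50 bases upstream in 386 of 388, the exceptions being Arhgap23-204 (35 bases) and Tomm22-203 (49 bases), and between 50 and 54 bases upstream in 9. Since the type is annotated from this distance, the result describes the annotation. Among 13734 detected protein-coding transcripts with at least 2 exons, 41 (0.299%) had the stop codon 50 bases or more before the last junction, and in 95.2% it was in the last exon. The reference's start codon was used by 348 of the 388. The length of their frames was a median of 34.9% of the reference's in codons. Codons that the reference does not have, as after a frame shift or in a poison exon, are included in it. Codon numbers given above for single transcripts are frame lengths in the same way. Decay transcripts had a median length of 1609 bases and their references 2268, with a median of 7 exons in each.

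**Figure D5:**
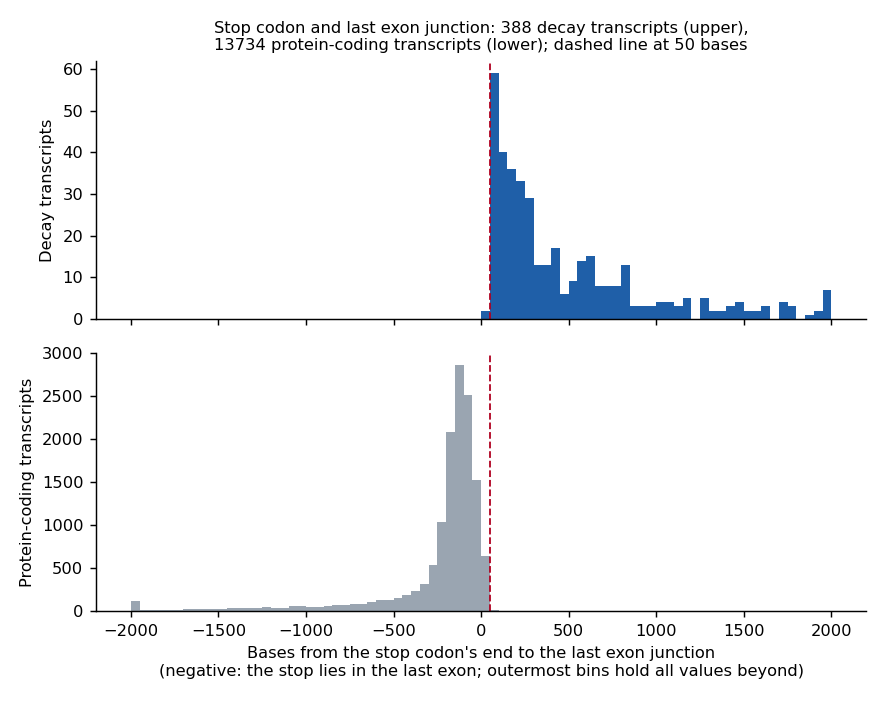
Distance from the end of the stop codon to the last exon junction (x axis, bases, negative where the stop codon lies in the last exon, outermost bins holding all values beyond) for the 388 decay transcripts (upper, number per 50-base bin) and 13734 protein-coding transcripts (lower). The dashed line is at 50 bases: 386 of 388 lie at or above it in the upper part and 41 of 13734 in the lower part.

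Reads outside the annotated transcripts also used the introns of decay transcripts. An intron absent from every protein-coding transcript of the gene was found in 353 of the 388. In genes with at least 20 counts such introns had a median of 6.86% of the counts that used them or the reference's competing introns, over all models, and 5.23% on annotated transcripts alone. In 193 of the 353 they also occurred on models without a reference identifier, which differ from the decay transcript elsewhere. All models outside the authors' class of known transcripts count here as new, incomplete ones included. In some genes these models held nearly all of the use. The intron of Xpnpep1-215 was used by 227 counts, 222 of them on new models, against 5 counts of the transcript itself, and took 56.0% and 57.1% in the libraries. For Dmpk-218, of the myotonic dystrophy protein kinase, the numbers were 230 and 219 against 11 counts, with 28.2% and 27.6%. For Ptov1-205 they were 288 and 286 against 2 counts, with 58.7% and 55.2%. These 3 were chosen after their values were seen. Among the abundant transcripts Actg1-206 had 103 intron counts, 44 of them on new models, and Gpcpd1-213 had 90, 40 of them on new models, while Rbm38-206 had 55 and 0.

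Between the libraries, 59 decay transcripts had enough counts to be tested (at least 10 of their own and 10 on the gene's other annotated transcripts), and 0 passed (two-sided Fisher's exact test, Benjamini-Hochberg adjusted p under 0.05 over 3213 annotated transcripts of all types). Of all 3213 tested, 3 passed (0.0934%). At an unadjusted p under 0.05 there were 4 of the 59. By Fisher's exact test Ddx5-208 was closest (76 of 470 and 145 of 577, p = 0.000448, adjusted p = 0.136). The others were Rbm7-204 (15 of 40 and 3 of 29, adjusted p = 0.724), E2f6-204 (48 of 104 and 68 of 108, adjusted p = 0.746) and Tor1aip1-206 (12 of 20 and 2 of 12, adjusted p = 0.870), all by Fisher's exact test. A missed threshold at these counts does not show that the shares were equal, and the tests compare these 2 libraries only.

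Of the pathway's own machinery all 29 listed genes were detected. The highest were Eif4a3, the helicase core of the exon junction complex, with 156 and 200 counts, the junction complex factor Rnps1 with 121 and 115, the decapping coactivator Pnrc2 with 109 and 112, the poly(A)-binding protein gene Pabpc1 with 87 and 121, the release factor gene Etf1 with 70 and 74, and Ruvbl1, an AAA ATPase, with 63 and 59. Upf1 had 53 and 54. None of the 27 tested passed the exact binomial test between the libraries (Benjamini-Hochberg over 10162 genes, of which 3.26% passed), and 3 had an unadjusted p under 0.05. In log2 of CPM plus 1, replicate 2 over replicate 1, these differed by 1.20 for the cap-binding protein gene Ncbp1 (12 and 29 counts, adjusted p = 0.195, exact binomial test), 0.46 for Pabpc1 (adjusted p = 0.269, exact binomial test) and 0.35 for Eif4a3 (adjusted p = 0.270, exact binomial test).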

How the data were processed

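The authors deposited whole-number read counts per transcript model and an annotation (GTF) for each of 2 libraries. Per the file headers the counts are not normalized, the annotation holds GENCODE M21 on mm10 with new models of source TALON, and novelty classes are the authors'. Aligner, versions, junction correction and filters are not given in any source used. The members and lists were chosen with earlier results of these data known. Counts of annotated transcripts were summed per gene as denominators. Introns, stop codons and distances came from exon and CDS records of GENCODE M21, whose exons matched the deposited ones. Shares have 95% Clopper-Pearson intervals. Fisher's exact tests and exact binomial tests (SciPy 1.17.1, pandas 2.3.3) were adjusted over the whole table at 0.05 and checked on simulated counts. Alternatives used TMM (edgeR 4.0.16) and DESeq2 1.42.0 size factors. A floor of 3 counts was 0.000351% and 0.00035% of the annotated counts. CPM, with a pseudocount of 1, was computed from the counts on reference genes.

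Named by rule were the 25 transcripts with the highest summed counts, the 15 with the highest shares in genes with at least 20 counts, splicing regulators with at least 5 counts, up to 3 of each other list, transcripts past the test, the 6 highest machinery genes and 3 examples on each side of the limit. Others were chosen after their values were seen (Tmem234-216, Tbrg4-211, Flot2-205, Srsf2-202, Upf1, Ncbp1, Rbm7-204, Arhgap23-204, Tomm22-203, Crebzf-203, Crebzf-205, Ndufs6-202, Ndufa7-202 and those named as such).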

Additional observations from a re-analysis of the deposited data

How the results depend on the processing

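The number of transcripts depended most on the rule: 652 had a summed count of at least 1, 160 of at least 5 and 62 of at least 10, and 235 to 250 had at least 2 counts when each library was used alone. The median share of the gene was 5.71% with genes of at least 10 counts, 3.03% with at least 50, 3.49% over all models and 11.1% for transcripts with at least 10 counts, and 4.34% to 5.0% with 1 library left out. The share of transcripts with a cassette exon (17.3%) was 13.1% against the longest protein-coding transcript and 22.6% among transcripts with at least 10 counts. For another acceptor site (16.5%) it was 12.4% against the longest, and for a skipped exon (23.5%) 14.5% among those with at least 10 counts. The median use of own introns was 5.23% on annotated transcripts alone, 5.41% to 6.72% with 1 library left out and, for transcripts with a single change, 4.69%, a setting added after the data were seen. The causes were not tested. The class share kept its side of the threshold under all alternatives run, and no decay transcript or machinery gene passed under any of them. The lowest adjusted p of a decay transcript was 0.0749, with minimum counts of 20. No paired analysis was possible because there is 1 group. Depth limits the rare transcripts: 228 of 388 had fewer than 5 counts.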
